A study of Homo sapiens with 6 samples.

Results

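The cytosolic heat shock chaperones and their co-chaperones are the 49 genes described here, out of 60683 rows of the count table. They were chosen by name and function and grouped by role: the HSP70 and HSP110 genes, the HSP90 genes, small heat shock proteins, DNAJ genes, BAG-domain exchange factors with HSPBP1, other co-chaperones, the collagen chaperone SERPINH1, which works in the endoplasmic reticulum (ER), and the transcription factors HSF1 and HSF2. The choice was made with earlier results of these data known. Of the 49 genes, 48 had enough counts to be tested. The exception was the small heat shock gene CRYAB, with at most 1 count in any library.

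RNA-seq was made from 143B cells, an established human osteosarcoma line, in 2 groups of 3 libraries. The control group received PBS for 24 h, and the treated group received an agent that the labels name TPBC-PEG for 24 h. The dose is 3 µM in the sample titles and 300 µM in the treatment protocol, and light exposure is not given in the labels. All 6 libraries come from the same cell line, although the extraction protocol speaks of animal tissue. Nothing in the labels says whether replicates were separate cultures, so p-values measure the spread between these libraries, which may be technical.

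Totals ran from 15726323 to 20486584 counts per library, and each group held both deep and shallow libraries. The mesenchymal markers VIM and SPARC were high in every library (2290 to 2591 and 353 to 424 CPM, which are counts scaled to library size by TMM), and RUNX2 was at 15.9 to 27.2 CPM. Other genes of the osteoblast lineage differed. COL1A1 was at 17.6 to 29.9 CPM, SPP1 at 16.1 to 31.9 CPM and ALPL at 3.91 to 5.68 CPM. These ranges pool both groups. Means in PBS and TPBC-PEG were 17.6 and 25.8 CPM for RUNX2 and 17.8 and 30.9 CPM for SPP1. For COL1A1 they were 27.4 and 19.7 CPM, and for ALPL 4.97 and 4.21 CPM. The late osteoblast gene IBSP was at 0 in every library, and BGLAP, SP7 and COL1A2 were at 0.145 CPM or less. PTPRC, CD3E, PECAM1, CDH5, CDH1 and KRT5 stayed at 0.222 CPM or less, CD14 at 0.103 to 1.04 CPM, and the epithelial marker EPCAM was at 15.1 to 17.7 CPM.

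Chaperones of the HSP70 family hold unfolded stretches of protein in cycles of ATP binding and hydrolysis. J-domain proteins of the DNAJ group start each cycle, and HSP110 and BAG-domain proteins end it by exchanging the nucleotide. HSP90 takes over partly folded clients, such as kinases and steroid receptors, with the help of co-chaperones that bridge it to HSP70, load clients or pace its ATPase. HSF1 is the main activator of the heat shock genes: proteotoxic stress frees it from chaperones, and it then binds as a trimer to heat shock elements, which are alternating GAA and TTC units spaced by any pair of bases.

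After TPBC-PEG, 24 of the 48 tested chaperone genes fell and 4 rose at an adjusted p under 0.05 in edgeR's quasi-likelihood test, while 20 were not called. Among all 15846 genes tested, 33.2% were called in either direction, 16.9% as lower and 16.2% as higher, so that the chaperone genes had 50% lower calls against 16.9% and 8.33% higher calls against 16.2%. This background is not matched on level. Only 3 of the chaperone genes lay under 10 CPM in PBS, against 6227 of all genes tested, of which 3.24% were lower. Shares by level are given below. The genes were also chosen with earlier results of these data known. The changes were small. The median log2 fold change was -0.12 over the 48 chaperone genes and 0.011 over all genes tested, and the single changes ran from -0.57 for HSP90AA1 to 0.53 for DNAJB2. None of the 48 was called with a fitted change of 1.5-fold or more, against 825 of the 15846 genes tested, a small share there too. In 26 of the 48, all 3 TPBC-PEG libraries lay below all 3 PBS libraries, and in 6 they lay above, against 21.4% and 22.1% of all genes. With library size alone as the scaling, 19 chaperone genes were lower and 6 higher, and over all genes 1971 were lower and 3213 higher, against 2682 lower and 2574 higher with the scaling used here. Counts are relative to each library's total, and in a bulk sample fewer cells that express a gene and less RNA per cell cannot be told apart.

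**Figure D1:**
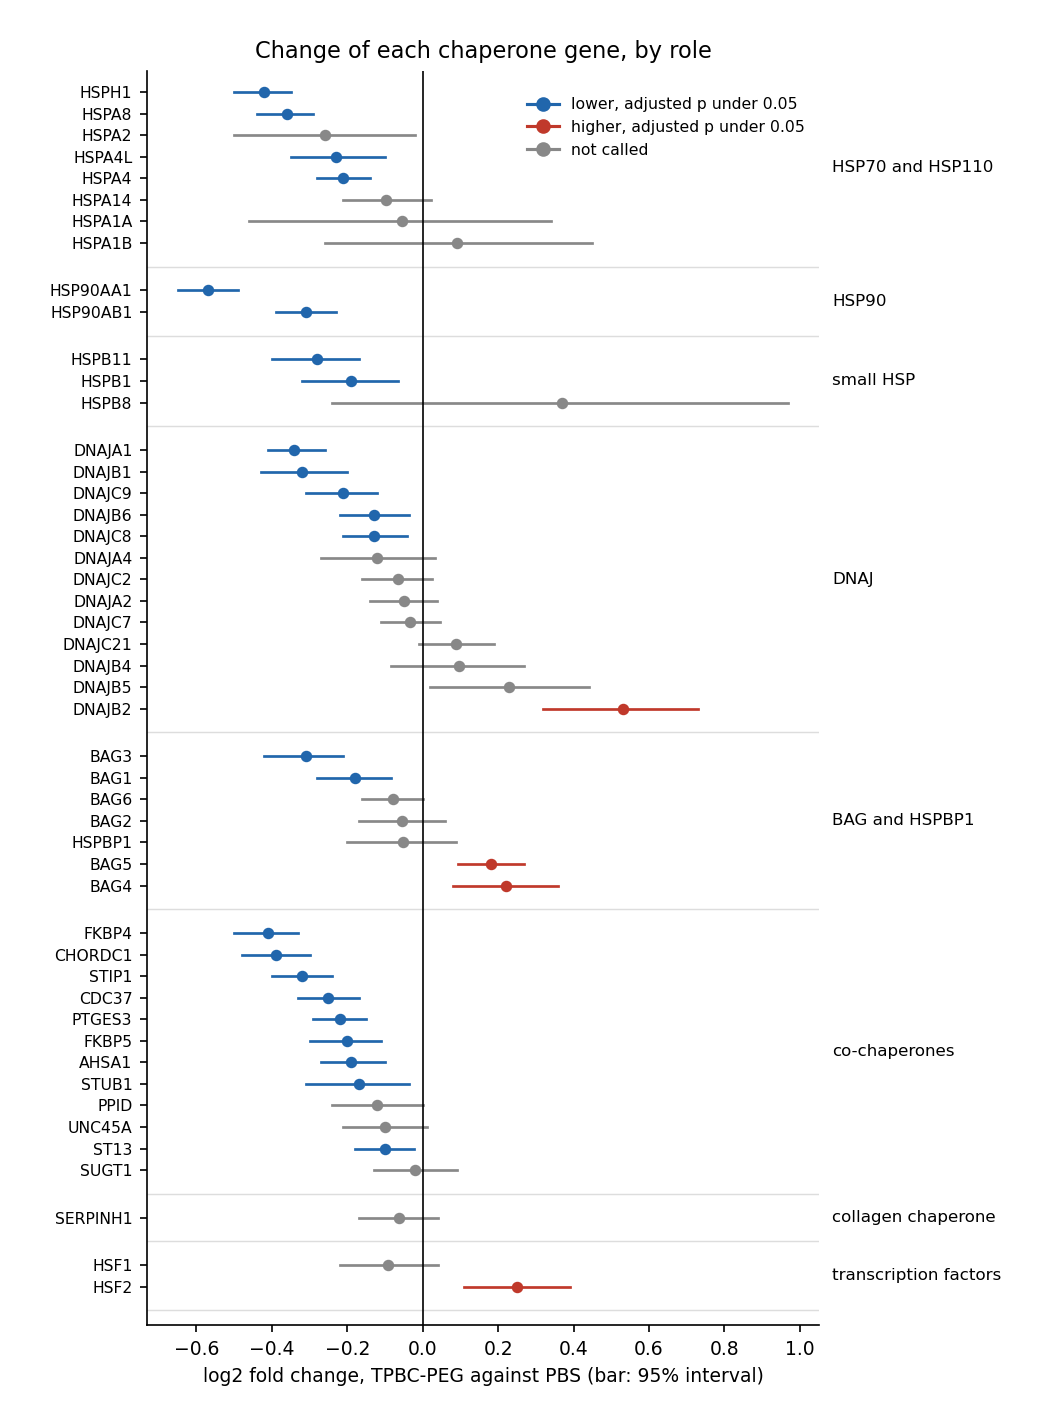
Log2 fold change of TPBC-PEG against PBS (horizontal axis) for each of the 48 tested chaperone genes, grouped by role (points, with 95% intervals as bars). Most points of the HSP70, HSP90 and co-chaperone groups sit left of 0, HSP90AA1 is farthest left at -0.57, and the 4 called higher (DNAJB2, HSF2, BAG4 and BAG5) sit right of it.

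Heat shock elements were looked for because many of these genes are known HSF1 targets. The letters were searched in RefSeq promoter windows of GRCh38.p14, from 250 bases before to 50 bases after each annotated start, and 42 of the 49 genes had a window. A complete 3-unit element, which is GAANNTTC extended by NNGAA or its reverse complement TTCNNGAA extended by NNTTC, was in a window of 7 of these 42 genes (16.7%), against 166 of 27305 genes (0.608%). A 2-unit element, GAANNTTC or TTCNNGAA (each its own reverse complement, and each contained in the 3-unit forms), was in 18 of 42 (42.9%), against 16.2% of all genes with a window. The CCAAT box, CCAAT or ATTGG on the other strand, was in 28.6% against 39.7%. The stretches below hold the elements of the genes whose values the results turn on, read 5′ to 3′ on the gene's own strand, with the element in capitals. HSPA8 and HSP90AB1 each have a pair of separate elements, and CHORDC1 has 3 overlapping ones.
HSP90AA1 (chr14:102087112-102087140, minus strand): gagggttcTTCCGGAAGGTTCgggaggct
HSP90AB1, distal (chr6:44247763-44247805, plus strand): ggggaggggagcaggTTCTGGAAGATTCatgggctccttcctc
HSP90AB1, proximal (chr6:44247816-44247858, plus strand): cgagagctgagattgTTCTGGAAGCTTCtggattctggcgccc
HSPA8, distal (chr11:123062346-123062374, minus strand): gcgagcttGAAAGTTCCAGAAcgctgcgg
HSPA8, proximal (chr11:123062171-123062199, minus strand): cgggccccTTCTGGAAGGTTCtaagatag
CHORDC1 (chr11:90223084-90223112, minus strand): ccgGAAAATTCGCGAAGGTTCCTGAAacg
DNAJB6 (chr7:157336858-157336900, plus strand): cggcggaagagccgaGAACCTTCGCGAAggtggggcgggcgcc
SERPINH1 (chr11:75562169-75562197, plus strand): ttccaactTTCCAGAAGTTTCtcgggacg
HSPA1A, 2-unit (chr6:31815422-31815459, plus strand): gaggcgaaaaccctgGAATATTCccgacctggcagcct
HSPA1B, 2-unit (chr6:31827618-31827655, plus strand): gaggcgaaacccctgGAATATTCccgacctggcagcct

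In the GENCODE 29 annotation the stretches of HSP90AB1 and DNAJB6 lie in an intron of a longer transcript of the same gene, those of HSP90AA1, HSPA8, CHORDC1 and SERPINH1 touch an exon of their own gene, and those of HSPA1A and HSPA1B are intergenic. The element of HSP90AA1 lies between positions -96 and -68 from its annotated start, with flanks, and the proximal one of HSPA8 between -63 and -35. The seventh gene with a 3-unit element is DNAJA1, where it begins at position 4 of the transcript. Of these 7 genes, 6 fell and SERPINH1 was not called, with a median log2 fold change of -0.34. Of the 11 genes with a 2-unit element only, 4 fell and none rose (median -0.06). Of the 24 with neither, 11 fell and 3 rose (median -0.12). Element class and level were not separated. The 3-unit genes include the most abundant chaperone genes (HSP90AB1, HSPA8 and HSP90AA1), and the 2-unit genes include the scarcest tested (HSPA1B, HSPA1A and HSPB8). The 3-unit genes were not set apart from the others by range, since HSPH1, with neither element in its windows, fell by 0.42 on the log2 scale. Outside the chaperone genes, 49 tested genes had a 3-unit element, of which 10 were lower (20.4%) and 5 higher (median -0.047), and those with neither were lower in 19.3%. A match of letters does not show that a site is bound, and its absence says only that the letters are not in the window.

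**Figure D2:**
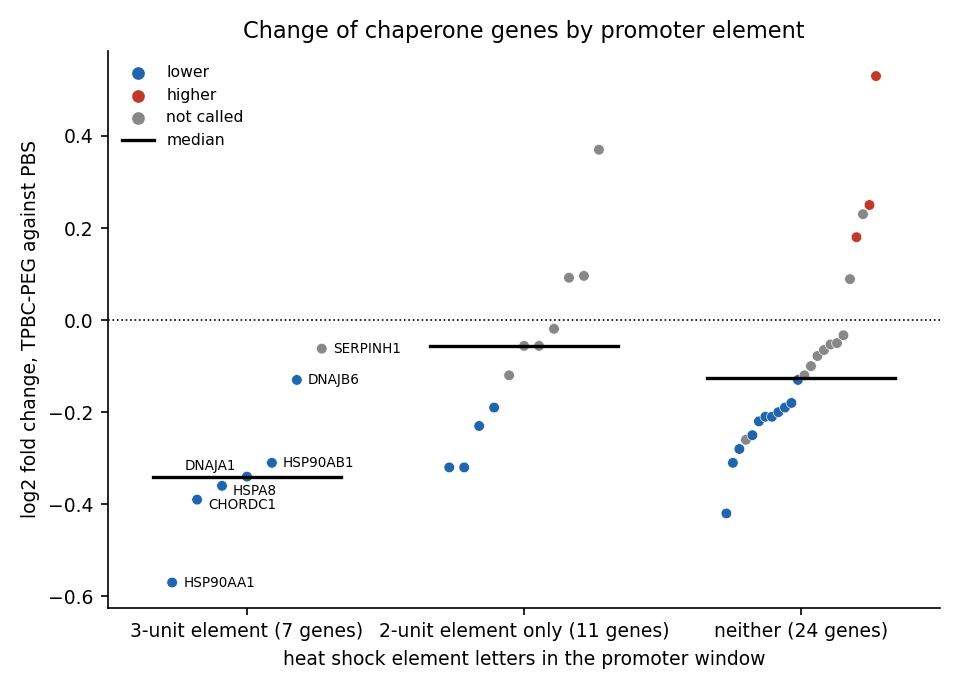
Log2 fold change of TPBC-PEG against PBS (vertical axis) for the 42 chaperone genes with a promoter window, by the heat shock element letters found in it. Points are genes coloured by call and lines are medians; the 7 genes with a 3-unit element have the lowest median (-0.34), and the genes with neither element span -0.42 to 0.53.

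Of the HSP90 genes, the larger change was that of HSP90AA1, the stress-inducible isoform, which fell more than any other chaperone gene. HSP90AA1 (ENSG00000080824, GRCh38 chr14:102080738-102139699) was at 4478, 4352 and 4790 CPM in the PBS libraries and at 3109, 2986 and 3076 CPM in the TPBC-PEG libraries. The groups were far apart, with the highest TPBC-PEG library below the lowest PBS library. Group means were 4540 ± 225 and 3057 ± 63.5 CPM (SD, n = 3 libraries a group). HSP90AA1 thus fell by 32.7%, or -0.57 on the log2 scale (95% interval -0.65 to -0.49, adjusted p = 3.29e-17, edgeR). HSP90AB1 (ENSG00000096384, chr6:44246166-44253888), the constitutive isoform, was at 3384, 3533 and 3813 CPM in PBS and at 2876, 2879 and 2902 CPM in TPBC-PEG. The 3 TPBC-PEG values nearly coincided and all lay below PBS. Its log2 fold change was -0.31 (SE 0.0385, adjusted p = 6.40e-09), a loss whose interval (-0.39 to -0.23) does not reach that of HSP90AA1.

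The makeup of cytosolic HSP90 mRNA moved with this. Per exon length, HSP90AA1 gave 42.9%, 41.2% and 41.6% of the HSP90AA1 and HSP90AB1 mRNA in PBS and 38.0%, 37.1% and 37.6% in TPBC-PEG. All treated libraries lay below all controls, a change of -4.34 percentage points on means of 41.9% and 37.6%. The exact two-sided permutation p was 0.1, the smallest that 3 against 3 libraries can give. Without exon length, the share went from 55.9% to 51.4%. Rows for HSP90AA1 and HSP90AB1 pseudogenes held 0.31% or less of the reads of gene and pseudogenes together.

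In the HSP70 and HSP110 group, 4 of 8 genes fell (50%) and none rose. Over all genes tested 16.9% were lower, a background not matched on level. HSPA8 (ENSG00000109971, chr11:123057489-123063230), the constitutive HSC70, was at 4781, 4744 and 4808 CPM in PBS and at 3774, 3633 and 3739 CPM in TPBC-PEG. Replicates were tight, and the groups lay far apart. Group means were 4778 ± 32.2 and 3715 ± 73.4 CPM, and the change was -0.36 on the log2 scale (SE 0.0362, adjusted p = 1.63e-11). HSPH1, an HSP110 protein that exchanges the nucleotide of HSP70, was at 245, 231 and 245 CPM in PBS and at 182, 174 and 182 CPM in TPBC-PEG. With no overlap, it fell by 25.5% (log2 fold change -0.42, adjusted p = 1.50e-12). HSPA4, a second HSP110 gene, had 383, 373 and 396 CPM in PBS and 328, 332 and 337 CPM in TPBC-PEG. It changed less, by -0.21 (adjusted p = 8.53e-06), so that the ratio of HSPA4 to HSPH1 per exon length went from 2.60 ± 0.0533 to 3.02 ± 0.0885. HSPA4L, the third of that family, had 42.7, 43.4 and 44.7 CPM in PBS and 37.9, 38 and 35.7 CPM in TPBC-PEG, also without overlap (log2 fold change -0.23, adjusted p = 0.00331).

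The strongly heat-inducible pair HSPA1A and HSPA1B stayed near the bottom of the group's levels. HSPA1A (chr6:31815464-31817946) was at 2.71, 3.49 and 3.85 CPM in PBS and at 3.34, 3.18 and 3.07 CPM in TPBC-PEG. HSPA1B (chr6:31827735-31830255) was at 4.54, 3.32 and 4.04 CPM in PBS and at 4.37, 3.81 and 4.58 CPM in TPBC-PEG. For both genes the groups overlapped: the log2 fold changes were -0.056 (95% interval -0.46 to 0.34, adjusted p = 0.868) and 0.092 (-0.26 to 0.45, adjusted p = 0.742). These genes are near-identical copies, so their split is uncertain, and an annotated transcript, AL671762.1, overlaps 36.5% of the HSPA1B exons. How reads with several hits were counted is not given. If such reads were dropped, the level of the pair, its sum and its share of HSP70 mRNA would also read too low. Summed, they were at 7.32 ± 0.536 CPM in PBS and 7.45 ± 0.399 CPM in TPBC-PEG. Their share of the HSP70 mRNA counted as HSPA1A, HSPA1B and HSPA8 per exon length was 0.292%, 0.278% and 0.317% in PBS and 0.394%, 0.371% and 0.394% in TPBC-PEG. The treated libraries all had the higher share (exact two-sided permutation p = 0.1, the smallest possible), while the pair's own level moved by less than its spread and HSPA8 fell. The testis-enriched HSPA2 (log2 fold change -0.26, adjusted p = 0.0888) and the ribosome-associated HSPA14 (-0.096, adjusted p = 0.221) were not called. In HSPA2 the TPBC-PEG libraries nonetheless all lay below PBS, at 8.05 to 9.16 CPM against 9.39 to 11.2 CPM.

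Of 13 DNAJ genes, which recruit and stimulate HSP70, 5 fell (38.5%), 1 rose (7.69%) and 7 were not called. All of them lay between 10 and 1000 CPM in PBS. Of all genes tested, 19.9% were lower at 10 to 100 CPM and 44.6% at 100 to 1000 CPM. The DNAJ share of lower calls was thus near that background. DNAJA1, a main partner of HSPA8, was at 339, 321 and 356 CPM in PBS and at 272, 266 and 266 CPM in TPBC-PEG. All treated values were below all controls, and the log2 fold change was -0.34 (adjusted p = 6.41e-10). DNAJB1, the classical heat-inducible HSP40, was at 56.1, 56.3 and 59.2 CPM in PBS and at 44.5, 46.4 and 46.7 CPM in TPBC-PEG. It likewise fell without overlap (log2 fold change -0.32, adjusted p = 1.41e-05). DNAJC9, a histone co-chaperone, was at 116, 112 and 122 CPM in PBS and at 105, 100.4 and 96.6 CPM in TPBC-PEG. Its change of -0.21 (adjusted p = 2.12e-04) carries the limit that 29.1% of its exon bases are shared with other genes, among them FAM149B1 and DNAJC9-AS1.

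Among the 48 tested genes described here, DNAJB2 was the 1 DNAJ gene called higher, and it had the largest rise. It codes for a J-domain protein with ubiquitin-interacting motifs that passes clients to the proteasome. DNAJB2 (ENSG00000135924, chr2:219279267-219286900) was at 9.70, 12.2 and 12.8 CPM in PBS and at 16.4, 17.7 and 15.5 CPM in TPBC-PEG. The groups did not overlap, although PBS 1 was low within its group. Group means were 11.6 ± 1.65 and 16.6 ± 1.13 CPM, or 0.53 apart on the fitted log2 scale (95% interval 0.32 to 0.73, adjusted p = 6.03e-05). DNAJC7, a protein that binds both HSP70 and HSP90, had 151, 153 and 156 CPM in PBS and 148, 149 and 153 CPM in TPBC-PEG. The groups overlapped and the log2 fold change of -0.033 was not called (95% interval -0.11 to 0.047). Both DNAJB6, which holds back protein aggregation, and DNAJC8, a splicing-linked J protein, had a log2 fold change of -0.13. Their calls were lost under some settings, with adjusted p = 0.157 and 0.138 by library size alone, and without TPBC-PEG 3 with 0.0857 and 0.0696. The other genes were DNAJA2 (-0.05), DNAJA4 (-0.12), DNAJB4 (0.096), DNAJB5 (0.23), DNAJC2 (-0.065) and DNAJC21 (0.089) in log2 fold change, and none was called. DNAJB5 missed the threshold (adjusted p = 0.0864) with its TPBC-PEG libraries at 12.4 to 14.1 CPM, all above the 10.6 to 11.7 CPM of PBS.

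The BAG genes moved in both directions. BAG-domain proteins release nucleotide and clients from HSP70, and their other domains set where the client goes. BAG3, which routes clients to selective autophagy, was at 72.9, 73 and 73.5 CPM in PBS and at 58.5, 59.3 and 58.8 CPM in TPBC-PEG. Spread within each group was under 1 CPM, and the log2 fold change was -0.31 (SE 0.0512, adjusted p = 2.63e-06). BAG1, which links HSP70 to the proteasome, had 91.4, 87.7 and 85.6 CPM in PBS and 79.6, 78.2 and 75.5 CPM in TPBC-PEG, again without overlap (-0.18, adjusted p = 0.00241). BAG5, which carries several BAG domains, was at 109, 112 and 116 CPM in PBS and at 127, 129 and 125 CPM in TPBC-PEG. It rose with all treated libraries above all controls (0.18, adjusted p = 7.95e-04), and the ratio of BAG3 to BAG5 per exon length went from 1.25 ± 0.0343 to 0.888 ± 0.00969. BAG4, known as a silencer of death domain receptors, was at 34.2, 31.1 and 38.8 CPM in PBS and at 40.2, 39.7 and 41 CPM in TPBC-PEG. Its PBS libraries were the more scattered, and the call (0.22, adjusted p = 0.0108) was lost without PBS 2 (adjusted p = 0.136). BAG6, a handler of tail-anchored and mislocalised proteins, had 244, 257 and 241 CPM in PBS and 229, 231 and 244 CPM in TPBC-PEG. The groups overlapped, and BAG6 (-0.078), BAG2 (-0.056) and the exchange factor HSPBP1 (-0.053) were not called.

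Among the other co-chaperones, 9 of 12 fell (75%) and none rose. At the PBS levels they span, 19.9% (10 to 100 CPM) and 44.6% (100 to 1000 CPM) of all genes tested were lower. FKBP4, an immunophilin of the HSP90 complex with steroid receptors, was at 178, 183 and 191 CPM in PBS and at 132, 141 and 143 CPM in TPBC-PEG. There was no overlap, and the log2 fold change was -0.41 (SE 0.0414, adjusted p = 1.94e-11). Antisense and neighbouring transcripts share 11.4% of its exon bases. CHORDC1, a zinc-binding HSP90 partner, was at 122, 119 and 119 CPM in PBS and at 92.8, 88.5 and 93.1 CPM in TPBC-PEG. It fell by a like amount (-0.39, adjusted p = 6.82e-10). STIP1, the adaptor that bridges HSP70 and HSP90, was at 282, 305 and 298 CPM in PBS and at 235, 239.7 and 233 CPM in TPBC-PEG. All treated libraries were lower (-0.32, adjusted p = 1.88e-09). PTGES3, the p23 protein that holds HSP90 in its closed state and the fourth most abundant chaperone gene per exon length, had 459.9, 454 and 475 CPM in PBS and 402, 405 and 384 CPM in TPBC-PEG. Its change was -0.22 (adjusted p = 2.87e-06).

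The kinase-loading factor CDC37 (-0.25, adjusted p = 1.39e-06), the ATPase activator AHSA1 (-0.19, adjusted p = 3.29e-04) and the glucocorticoid-responsive immunophilin FKBP5 (-0.20, adjusted p = 4.92e-04) fell too. STUB1, the ubiquitin ligase CHIP that marks chaperone clients, was at 43.2, 38.9 and 42.1 CPM in PBS and 36.6, 33 and 40.9 CPM in TPBC-PEG. Its groups overlapped and its call (-0.17, adjusted p = 0.0451) was marginal: JMJD8 on the other strand shares 42.4% of its exon bases, and without TPBC-PEG 2 the adjusted p was 0.362. ST13, an HSP70-interacting protein, was also marginal (-0.10, adjusted p = 0.0381), with adjusted p = 0.202 without PBS 3 and 0.118 without TPBC-PEG 2. The myosin chaperone UNC45A (-0.10), the cyclophilin PPID (-0.12) and SUGT1 (-0.019), an adaptor between HSP90 and its clients, were not called.

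**Figure D3:**
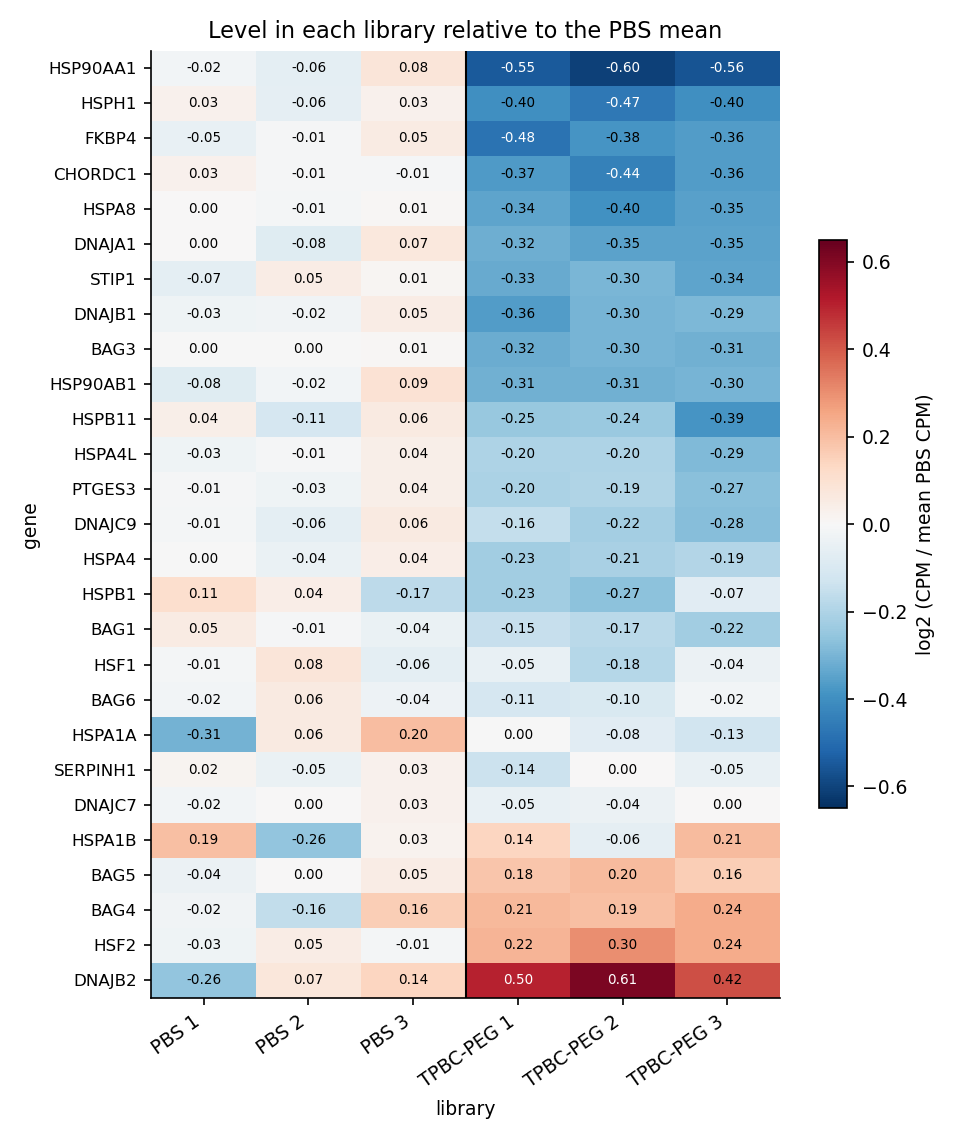
Level of 27 chaperone genes (rows, ordered by change) in each of the 6 libraries (columns), as log2 of CPM over the PBS mean of that gene. The 3 TPBC-PEG columns repeat one another for HSP90AA1 and BAG3, whereas HSPA1A and HSPA1B scatter within PBS as widely as between groups.

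Small heat shock proteins bind unfolding proteins without using ATP, and several of that family were scarce here. HSPB1 was at 64.4, 61.5 and 53.1 CPM in PBS and at 51, 49.6 and 56.8 CPM in TPBC-PEG. PBS 3 lay below TPBC-PEG 3, so the groups overlapped, and the call (-0.19, adjusted p = 0.0157) was lost without any 1 of PBS 1, PBS 2, TPBC-PEG 1 and TPBC-PEG 2 (adjusted p = 0.0574 to 0.119). HSPB11, known also as the intraflagellar transport protein IFT25, was at 60.5, 54.7 and 61.4 CPM in PBS and at 49.7, 49.9 and 45.1 CPM in TPBC-PEG. It fell without overlap (-0.28, adjusted p = 1.24e-04). HSPB8, the partner of BAG3, was at 0.946 to 1.41 CPM in PBS and 1.49 to 1.59 CPM in TPBC-PEG. All treated libraries were higher, but at this depth the interval was wide (0.37, 95% interval -0.24 to 0.97, adjusted p = 0.384).

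SERPINH1, a collagen chaperone of the ER and a known HSF1 target, was at 75.1, 71.9 and 75.7 CPM in PBS and at 67.3, 74.3 and 71.7 CPM in TPBC-PEG. The groups overlapped, and the log2 fold change was -0.062 (95% interval -0.17 to 0.041, adjusted p = 0.386).

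Of the transcription factors, HSF2 rose and HSF1 was not called. HSF1 was at 38.1, 40.5 and 36.8 CPM in PBS and at 37.2, 33.8 and 37.4 CPM in TPBC-PEG, with overlap (-0.091, 95% interval -0.22 to 0.041, adjusted p = 0.312). HSF2, which forms mixed trimers with HSF1 and binds the same elements, was at 27, 28.4 and 27.3 CPM in PBS and at 32, 33.9 and 32.5 CPM in TPBC-PEG. It rose without overlap (0.25, SE 0.0696, adjusted p = 0.00365); its difference from HSF1 was not tested. The ratio of HSF2 to HSF1 per exon length went from 1.41 ± 0.0435 to 1.79 ± 0.157. These are mRNA levels, and HSF1 activity is set largely after translation, which was not measured.

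Levels across the chaperone genes spanned a wide range, and lower calls were more frequent at higher levels. Per kb of exon in PBS, HSP90AB1 stood at 1200 CPM (1135 to 1280 over libraries), HSPA8 at 985 (978 to 992) and HSP90AA1 at 865 (829 to 913), and these ranges did not overlap. PTGES3 (136) and DNAJA1 (124) came next, also without overlap, and HSPA1B (1.57), HSPA1A (1.35) and HSPB8 (0.416) were last of the 48, with the ranges of HSPA1B and HSPA1A overlapping. Annotated exon length counts all isoforms, so a gene with long minor isoforms reads too low. The near-identical HSPA1A and HSPA1B would also read too low if reads with several hits were dropped. The 3 leading genes together took 1.27% ± 0.0298 of all counts in PBS and 0.979% ± 0.0154 in TPBC-PEG, and the other chaperone genes took 0.483% and 0.439%.

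In the 100 to 1000 CPM range, 14 of 18 chaperone genes were lower (77.8%), against 982 of 2203 genes of all kinds (44.6%). All 3 chaperone genes at 1000 CPM or more were lower, against 42 of 82 (51.2%), and between 10 and 100 CPM it was 7 of 24 (29.2%) against 19.9%. Across the 48 genes, the Pearson r between log2 fold change and log2 PBS level was -0.652, and across all 15846 genes it was -0.249. Both are descriptions across genes measured in the same libraries, and the PBS level enters both axes. When an expression-level trend over all genes was removed, 20 of the 24 lower calls were kept.

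**Figure D4:**
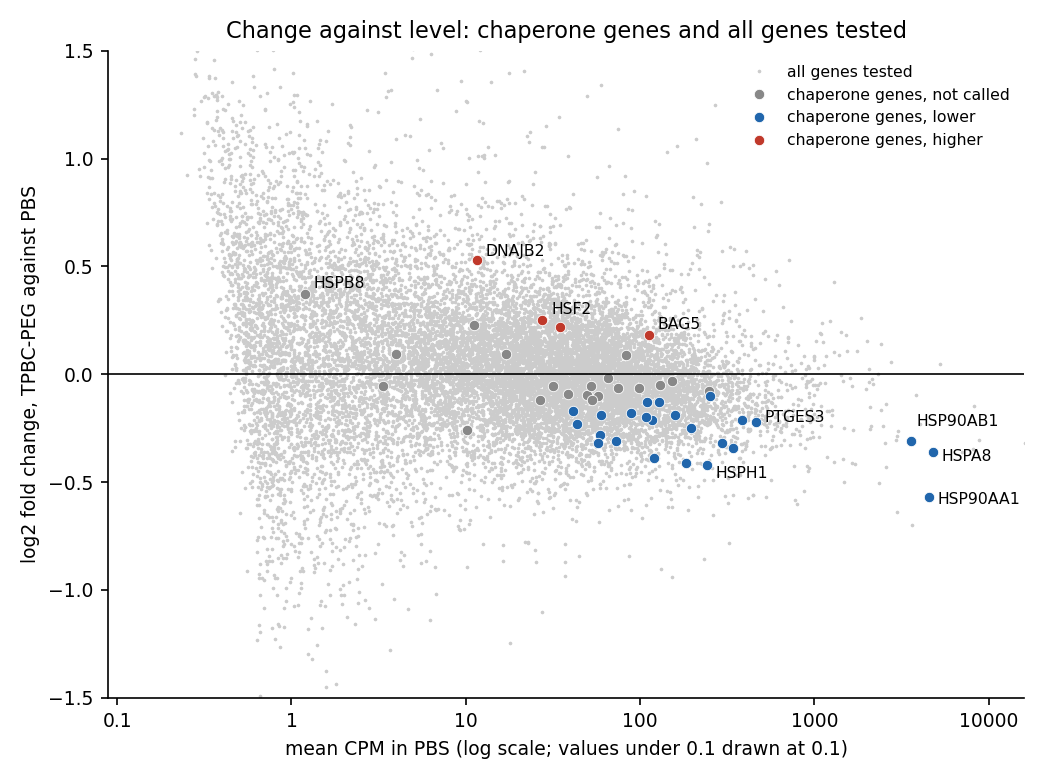
Log2 fold change of TPBC-PEG against PBS (vertical axis) against mean PBS level in CPM (horizontal log axis) for the chaperone genes (large points, coloured by call) over all genes tested (small grey points; 106 lie outside the drawn range of 1.5 either way). HSPA8, HSP90AA1 and HSP90AB1 stand at the right, each below 0, and the 4 called higher lie between 11.6 CPM (DNAJB2) and 112 CPM (BAG5).

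ER chaperones rose in the same libraries. Of 21 tested ER chaperones and folding enzymes, 20 rose and none fell (median log2 fold change 0.56, beside -0.12 for the 48 genes described here, which include the ER-resident SERPINH1). HSPA5, the ER HSP70 also called BiP, went from 931 to 3829 CPM (2.04, adjusted p = 2.93e-04). DNAJB9, an ER J-domain protein, was at 1.57, and HSP90B1, the ER HSP90, went from 1087 to 2419 CPM (1.15, adjusted p = 3.77e-21). Set against their cytosolic relatives per exon length, the ratio of HSPA5 to HSPA8 was 0.231, 0.247 and 0.247 in PBS and 1.25, 1.49 and 1.10 in TPBC-PEG. Without exon length, HSPA5 lay above HSPA8 in TPBC-PEG 1 and 2 (3810 and 4370 against 3774 and 3633 CPM) but below it in TPBC-PEG 3 (3308 against 3739 CPM). HSP90B1 to the sum of HSP90AA1 and HSP90AB1 went from 0.112 ± 0.00286 to 0.332 ± 0.028. In sum, the 49 genes went from 17804 ± 510.2 to 13992 ± 141 CPM and the ER list from 7638 ± 166 to 13985 ± 1057 CPM.

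The remaining lists were mixed or lower. Over all genes tested, 16.9% were lower and 16.2% higher. Of the CCT chaperonin and prefoldin genes, which fold actin and tubulin, 9 of 14 fell (64.3%) and 1 rose (7.14%, median -0.16). TCP1 was at -0.28, CCT3 at -0.26 and PFDN2 at 0.25. Mitochondrial chaperones and proteases had 5 of 14 lower (35.7%) and 2 higher (14.3%, median -0.14): HSPD1, the mitochondrial HSP60, was at -0.39 and TRAP1, the mitochondrial HSP90, at -0.24, and the protease LONP1 was at 0.43 and GRPEL2, an exchange factor, at 0.31. Of the 26S proteasome genes 13 of 31 fell (41.9%) and none rose (median -0.09). The largest falls were those of PSMD2 (-0.22), PSMC3 and PSMD13 (both -0.21). Most proteasome genes lay between 100 and 1000 CPM in PBS, where 44.6% of all genes tested were lower, so their share was near that background. The mitochondrial genes other than HSPD1 and HSCB lay between 10 and 1000 CPM. Of all genes tested, 19.9% were lower at 10 to 100 CPM, so the mitochondrial share of 35.7% was also near background. The CCT genes lay above 100 CPM, where 44.6% of all genes were lower up to 1000 CPM and 51.2% from there on.

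Heat-inducible genes outside the chaperone set did not move as one. Of 9 tested, 3 rose (33.3%) and 2 fell (22.2%, median -0.081). The larger rises were those of ZFAND2A (0.68), which codes for a proteasome-associated protein induced by arsenite, and DEDD2 (0.54), and the genes that fell were HSPD1 (-0.39) and CACYBP (-0.24). HSPA6, the most strictly heat-inducible HSP70 gene, was too low to test. Of 17 other HSP90 and HSP70 co-chaperones, 3 rose and 4 fell (median 0.018). Those shares, 17.6% and 23.5%, are near the 16.2% and 16.9% over all genes tested. The largest called changes were those of FNIP1, an inhibitor of the HSP90 ATPase (0.58), CDC37L1 (0.29), SGTA (-0.34) and the phosphatase PPP5C (-0.29). Of 10 further cytosolic heat shock genes only HSPA1L, HSPA12A and HSF4 were testable, and none was called.

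**Figure D5:**
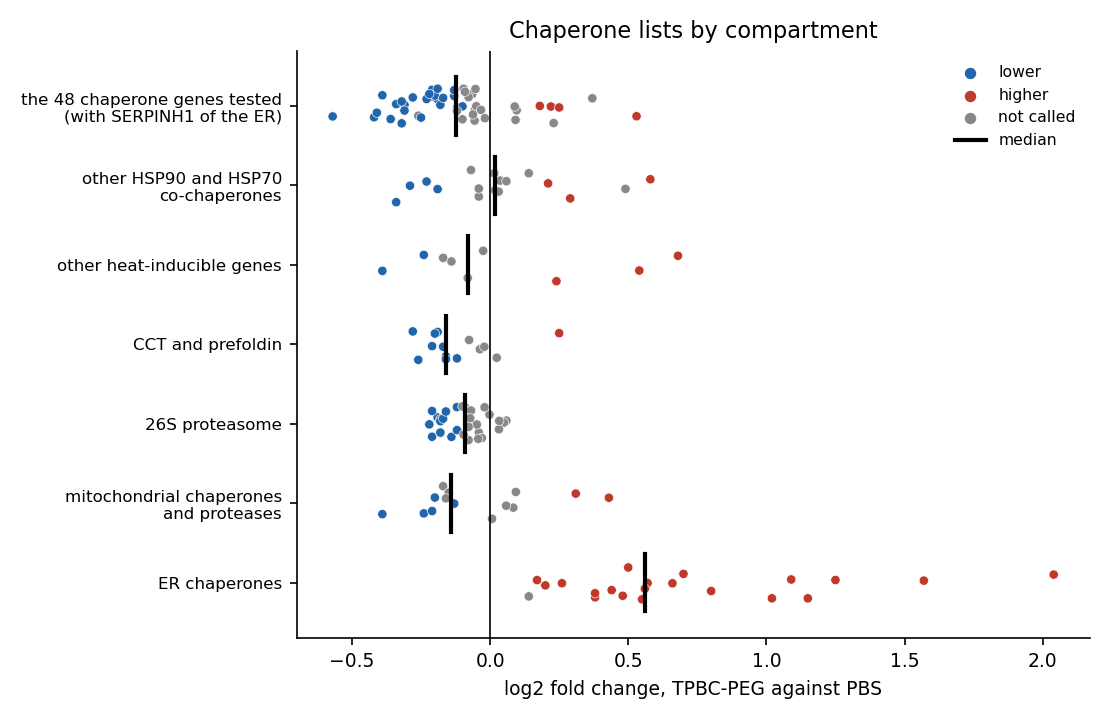
Log2 fold change of TPBC-PEG against PBS (horizontal axis) for the tested genes of each chaperone list (rows), with points coloured by call and black lines at the medians. The ER list lies right of 0 with a median of 0.56, and the 48 tested genes described here, SERPINH1 of the ER among them, have a median of -0.12.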

How the data were processed

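RNA of 6 libraries was sequenced, and the deposited table gives whole-number read counts per gene. The submitters' processing notes name HISAT2 and GRCh38; the sources used here do not give the counter, the annotation, the strand setting or how reads with several hits were handled. Gene symbols came from the reference's table of gene names (60370 of 60683 rows) and coordinates and exon lengths from GENCODE 29 (58496 rows); HSPB11, now IFT25, was matched by its GENCODE 29 name. The members and lists were chosen with earlier results of these data known.

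Counts were tested with edgeR 4.0.16 (R 4.3.3): TMM scaling, filterByExpr (minimum count 10, total 15), robust quasi-likelihood fit on all 15846 genes, Benjamini-Hochberg adjustment, called at an adjusted p under 0.05. CPM are TMM-scaled (factors 0.9724 to 1.0165). The common biological coefficient of variation was 4.19%. On simulated counts of 15438 genes, the test recovered 84% of 50 genes changed 1.25-fold and 98% of those changed 1.5-fold. Of 208 calls, 17 were false (8.17%), a larger share than the adjusted p threshold of 0.05 aims at. The changed genes were drawn from the more abundant ones, so the recovery does not cover scarce genes such as HSPA1A, HSPA1B and HSPB8. Far fewer genes were changed in the simulation than were called in the data.

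Values in every library are given for 8 genes set by name (HSPA1A, HSPA1B, HSPA8, both HSP90 genes, SERPINH1, HSF1, HSF2) and, in each other role, for up to 3 called genes per direction with the largest change and the 2 most abundant by CPM, 27 in all. Of each other list, the 2 largest called changes per direction were named, with ties. STUB1 and HSP90B1 were added after their values were seen. DESeq2 1.42.0 and limma-voom (3.58.1) were alternatives, with other scalings, filters, trend offsets and leave-one-out fits. Same-numbered libraries did not deviate together.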

Additional observations from a re-analysis of the deposited data

How the results depend on the processing

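Every chaperone gene was refitted under 19 other settings, giving 912 values, of which 832 kept direction and side of the threshold, 63 lost a call, 6 gained one and 11 turned direction. The test against a 1.5-fold change left 0 chaperone genes higher and 0 lower, because none was called with a fitted change that large. Among all 15846 genes tested it left 131 higher and 14 lower. Under every other setting 22 of the 28 called genes kept the call; BAG4, DNAJB6, DNAJC8, HSPB1, ST13 and STUB1 lost it under at least 1. Lower chaperone genes numbered 19 to 24 and higher ones 3 to 6 over those settings. The median of -0.12 became -0.08 by library size alone. There the median of all genes moved from 0.011 to 0.054, and the difference of the medians stayed at -0.13. The median of the chaperone genes was -0.14 with a GC trend removed and -0.13 with an exon length trend removed. It ran from -0.15 to -0.11 when 1 library was left out. The cause of the other shifts was not tested.

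None of the genes that turned direction was called. With library size alone, DNAJC7 was at 0.01 and SUGT1 at 0.024. With the expression-level trend removed, DNAJC7 was at 0.024, SUGT1 at 0.00087 and DNAJA2 at 0.00054. With the GC trend removed, HSPBP1 was at 0.032. With 1 library left out, SUGT1 ran from -0.069 to 0.028, HSPBP1 up to 0.0045 (without PBS 1), HSPA1B from -0.025 (without PBS 2) to 0.20, and HSPA1A from -0.20 to 0.045 (without PBS 3).

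Same-numbered libraries had correlations of deviations of 0.00336, 0.0646 and -0.0154, so no shared replicate effect was seen. The labels do not say whether the numbers pair the samples, and these correlations cannot decide it. With a replicate block, 4 chaperone genes were higher and 24 lower, the counts found without it. Genes at a few CPM, such as HSPA1A, HSPA1B and HSPB8, could not be resolved below changes of about their intervals at this depth.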
